A study of Drosophila melanogaster with 18 samples.

Results

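Embryos of the fruit fly Drosophila melanogaster that lack the ZZ zinc-binding domain of ORB2 (genotype orb2-delta-zz) were followed across 1 hour of development, by setting the collection of 2-3h after egg laying against that of 1-2h. The comparison rests on 6 of the 18 libraries of the series, 3 at 2-3h and 3 at 1-2h, chosen by genotype and time alone. The other libraries are orb2-delta-zz at 0-1h and w1118 at all 3 times, the w1118 strain being labelled as the control before injection and called wild type here. All flies were kept at 25 ºC, and all RNA came from whole embryos lysed in bulk. The labels do not say whether the 3 libraries of a group came from separate collections, so p-values measure the spread between these libraries, which may be technical. The comparison asks how the transcriptome of the mutant embryo moved through the hour in which its own genome becomes broadly active.

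Early fly embryos develop on messenger RNA that the mother deposited in the egg. During the maternal-to-zygotic transition RNA-binding proteins and deadenylases remove much of this maternal RNA, and the zygotic genome is switched on, first for a few short genes and then widely as the syncytial nuclei are enclosed by membranes. ORB2 is a member of the CPEB family of RNA-binding proteins, which control translation and stability of messenger RNA through its 3′ end, and its ZZ domain lies near the C-terminus.

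Values are TPM, a measure of transcript abundance corrected for transcript length that the authors scaled to a fixed total within each library. A TPM value is a share of its own library, so a difference between times is a difference of shares, and each time point was deposited as a table of its own. Time and table cannot be told apart here. The tables listed 8188 genes at 1-2h and 9141 at 2-3h, of which 8109 were in both, 79 only in the earlier and 1032 only in the later. Libraries of one time correlated with r of at least 0.9913 at 2-3h and 0.9956 at 1-2h across genes. Read depth is unknown, since the tables hold no raw counts and the deposited values gave no whole reads back. In whole embryos a smaller share of a transcript can come from fewer cells of a type or from less RNA per cell, and these cannot be told apart.

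Replicate 1 of orb2-delta-zz stood apart at both times in long transcripts. Of 5422 genes with a mean of 10 TPM or more at both times, 82 were at least 1.5-fold lower in replicate 1 than in either other library at both 2-3h and 1-2h, and 0 were higher by that much at both. The longest annotated transcript of these 82 genes had a median of 6932 bases, against 2063 bases for all 5422. Among genes with a transcript of 8000 bases or more, the median of replicate 1 minus the mean of the others was -0.37 (log2) at 2-3h and -0.15 at 1-2h, against 0.05 at 0-1h. Below 1000 bases it was 0.00 at 2-3h and 0.02 at 1-2h. Counts without replicate 1 at both times are given where they differ by over 1.5 times. Its part in other results was not tested. Replicate 2 at 2-3h stood apart in muscle and basement membrane markers of older embryos, such as Act57B with 0.107, 14.6 and 0.273 TPM in replicates 1, 2 and 3. Without it the comparison below gave 1991 rises and 3518 falls.

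Between 1-2h and 2-3h the mutant transcriptome changed broadly, and more genes fell than rose. Of 7538 genes with a mean of at least 1 TPM over the 6 libraries, 2165 rose (28.7%) and 3711 fell (49.2%) at a Benjamini-Hochberg adjusted p under 0.05 by limma on log2(TPM + 1), together 78% of those tested. The median change of all genes tested was -0.23 on the log2 scale. Changes of 2-fold or more were called in 933 genes that rose (12.4%) and 1760 that fell (23.3%). All 3 libraries of 2-3h lay above all 3 of 1-2h in 2250 genes (29.8%) and below them in 3787 (50.2%). A lack of overlap in a single gene, where given below, was thus common. Rescaling the libraries by trimmed mean factors moved changes up by a median of 0.22 over genes (log2), and gave 2965 rises and 3088 falls, so the share of rises among calls was 36.8% on TPM and 49.0% after rescaling.

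**Figure D1:**
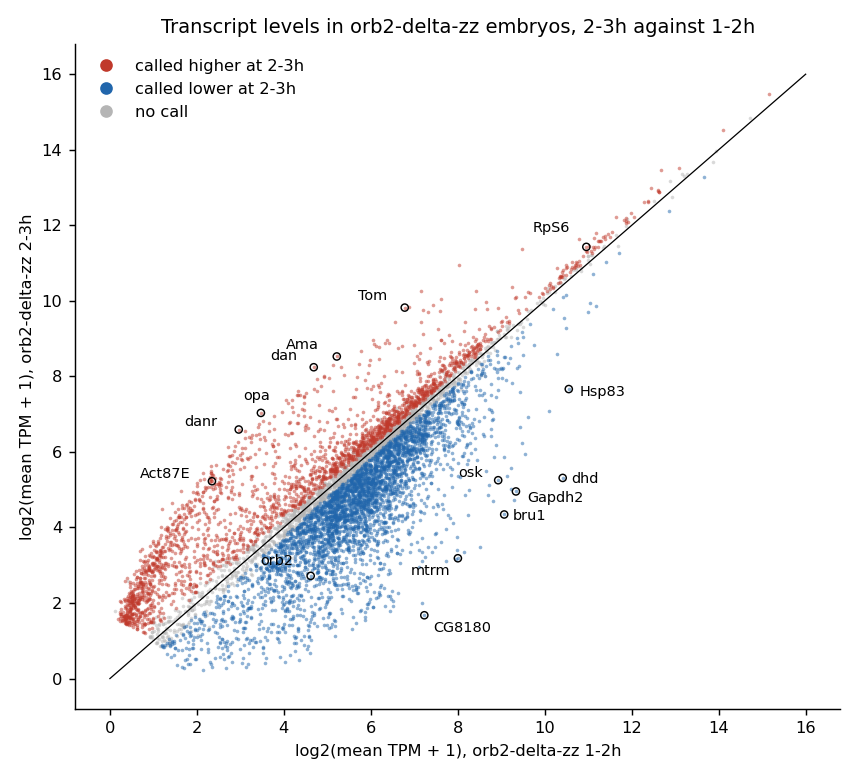
Mean level of each gene tested in orb2-delta-zz, as log2(mean TPM + 1), at 2-3h on the vertical axis and 1-2h on the horizontal axis (n = 3 libraries each); red genes were called higher at 2-3h, blue genes lower, grey genes not called, and the line marks equal levels. Falls include abundant transcripts such as Hsp83, at 1501 TPM at 1-2h, while danr and opa, among the largest rises, were at 6.80 and 10.1 TPM at 1-2h.

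The 1760 genes that fell by 2-fold or more held 4.10%, 4.33% and 4.51% of all TPM at 2-3h, against 14.5%, 15.4% and 14.98% at 1-2h. At 0-1h, which did not enter their choice, they had held 22.1%, 22.9% and 21.7%, so their share was already declining before 1-2h. The 933 genes that rose by 2-fold or more held 5.96%, 6.25% and 6.85% at 2-3h, against 1.59%, 1.54% and 1.56% at 1-2h. In both sets the direction from 1-2h to 2-3h follows from how the genes were chosen.

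The 10 largest rises, among called genes with at least 10 TPM at 1 of the times and no overlap between the libraries of the times, ranged from 3.3 to 3.64 on the log2 scale. At the head were 2 nearby genes on chromosome 3R, danr and dan, which encode related DNA-binding proteins known from antennal development (BDGP6.54, 3R:25138072-25139903 and 3R:25184383-25192806, both on the plus strand). The level of danr was 85.8, 94.3 and 107 TPM at 2-3h, against 6.79, 8.10 and 5.50 TPM at 1-2h, a change of 3.64 ± 0.14 (log2, SE, limma adjusted p = 2.0e-07). For dan the levels were 298, 284 and 324 TPM at 2-3h, against 24.9, 29.5 and 20.0 TPM at 1-2h, with a change of 3.57 ± 0.13 (limma adjusted p = 1.8e-07). Separate libraries were a condition of this choice for all 10. The pair-rule gene opa, which encodes a Zic-type zinc-finger transcription factor, had 101, 132 and 157 TPM at 2-3h, against 9.11, 11.1 and 10.1 TPM at 1-2h, and rose by 3.54 ± 0.16 (limma adjusted p = 4.4e-07). Its lowest library at 2-3h was replicate 1.

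Genes for the cell surface and for signalling stood among the same 10. Ama, which encodes the secreted adhesion protein Amalgam, had 370.1, 350.1 and 384 TPM at 2-3h, against 39.6, 39.2 and 29.8 TPM at 1-2h. The level of grnd, the gene of the TNF receptor Grindelwald, was 72.1, 66.7 and 68.6 TPM at 2-3h, against 5.38, 6.44 and 4.92 TPM at 1-2h. dib, a cytochrome P450 gene of ecdysone synthesis, had 74.1, 69.0 and 84.6 TPM at 2-3h, against 6.62, 7.45 and 6.21 TPM at 1-2h. The choice of the 10 required that the times did not overlap. Fbxl7, an F-box gene, averaged 92.3 ± 7.70 TPM at 2-3h and 7.59 ± 0.496 TPM at 1-2h (SD, n = 3 each), and Atx-1, the fly Ataxin-1 gene, averaged 112 ± 3.78 TPM at 2-3h and 10.5 ± 0.862 TPM at 1-2h. The remaining 2 of the 10 were corn and CG12420, with changes of 3.31 and 3.32.

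The 10 largest falls ran from -4.63 to -5.57 on the log2 scale and were thus larger than any of those 10 rises. The largest, in the uncharacterised gene CG8180, was -5.57 ± 0.14 (SE, limma adjusted p = 4.5e-08), with 2.30, 1.59 and 2.70 TPM at 2-3h, against 147, 161 and 139 TPM at 1-2h. dhd (X:5312171-5313125, plus strand, without introns in BDGP6.54), which encodes a thioredoxin of the female germline, had 35.1, 31.1 and 49.9 TPM at 2-3h, against 1295, 1457 and 1334 TPM at 1-2h. Its change was -5.13 ± 0.16 (limma adjusted p = 9.8e-08). Its level had been 5395, 5307 and 5648 TPM at 0-1h, so the decline was under way before 1-2h.

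The 10 also included germline regulators of RNA and of meiosis. bru1, the gene of the translational repressor Bruno, had 19.4, 18.6 and 19.9 TPM at 2-3h, against 522, 554 and 531 TPM at 1-2h, a change of -4.72 ± 0.06 (limma adjusted p = 2.0e-08). The 3 libraries of each time lay close together. BicC, an RNA-binding protein gene of oogenesis, averaged 8.0 ± 1.24 TPM at 2-3h and 248 ± 23.3 TPM at 1-2h (SD, n = 3 each). mtrm, whose product inhibits Polo kinase in the meiosis of the egg, had 7.40, 7.72 and 9.17 TPM at 2-3h, against 245, 264 and 257 TPM at 1-2h. Enzyme and transporter genes stood among the same 10, with 3.02 TPM at 2-3h and 144 TPM at 1-2h for the cytochrome P450 gene Cyp6a19, 10.2 TPM at 2-3h and 365 TPM at 1-2h for the aldo-keto reductase gene Akr1B and 7.57 TPM at 2-3h and 211 TPM at 1-2h for the peptide transporter gene yin. CG4991 and CG6927 changed by -4.80 and -4.65. Several named genes overlap another gene on the same strand in the annotation (bru1 with CG31759, mtrm with Exo70, BicC with CG45084, CG4991 with CG16700), and reads shared there could be assigned to either.

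orb2 itself (3L:8937100-8954463, minus strand) fell in the mutant over this hour. Its level was 5.64, 5.86 and 5.25 TPM at 2-3h, against 24.1, 24.3 and 22.3 TPM at 1-2h, with no overlap, and the difference between the times came to -1.90 ± 0.08 (log2, limma adjusted p = 3.7e-07). At 0-1h it had been 25.8, 29.2 and 24.7 TPM. In wild type it averaged 10.4 TPM at 2-3h and 29.4 TPM at 1-2h, and the difference between the genotypes' changes was -0.38 with no call. A gene-level value cannot show the missing domain, and CG43783 overlaps orb2 on the same strand.

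The gene lists described from here on share members, such as osk, orb and opa, so their counts are not independent. Maternal patterning genes fell almost throughout. Among 13 tested genes of the anterior, posterior and terminal systems 11 fell, 0 rose and 2 were not called, with a median change of -2.08 against -0.23 for all genes tested, where 49.2% fell. With no filter on mean TPM 14 were tested, of which 11 fell and 1 rose. The symbol nos found no match in the annotation, so it is missing here and from the germ plasm and pole cell lists. osk, which nucleates the germ plasm at the posterior pole, had 28.1, 40.1 and 43.1 TPM at 2-3h, against 405, 535 and 519.6 TPM at 1-2h (change -3.69 ± 0.17, limma adjusted p = 6.0e-07). exu, needed to localise bicoid RNA, averaged 13.2 TPM at 2-3h and 177 TPM at 1-2h. The anterior determinant bcd averaged 35.5 TPM at 2-3h and 145 TPM at 1-2h, and cad, the posterior homeobox gene, 27.8 TPM at 2-3h and 121 TPM at 1-2h. Both fell, after means at 0-1h of 126 and 131 TPM. The 2 genes without a call were stau, which carries maternal RNAs to the poles, and hb, which is both maternal and zygotic and averaged 109 TPM at 2-3h and 140.3 TPM at 1-2h.

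In the maternal pathway of the dorsal-ventral axis 8 of 10 tested genes fell and 1 rose, with a median of -1.20. Of all genes tested 49.2% fell and 28.7% rose. dl, which encodes the NF-kappaB factor Dorsal, had 1.68, 2.93 and 2.53 TPM at 2-3h, against 56.1, 59.8 and 55.3 TPM at 1-2h, a change of -4.12 ± 0.14 (limma adjusted p = 1.4e-07). The Toll ligand gene spz averaged 3.54 TPM at 2-3h and 39.4 TPM at 1-2h, while the receptor gene Tl still averaged 216 TPM at 2-3h and 276 TPM at 1-2h. cact, whose product holds Dorsal in the cytoplasm, averaged 251 TPM at 2-3h and 236 TPM at 1-2h and was not called. The gene that rose was wntD, a zygotic feedback inhibitor of Dorsal, with 34.0, 36.2 and 32.4 TPM at 2-3h, against 8.07, 6.69 and 7.08 TPM at 1-2h (change 2.09 ± 0.09).

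Germ plasm genes fell in 14 of 17 cases and rose in 0 (in 1 after trimmed mean scaling), with a median of -2.47. Over all genes tested 49.2% fell. pgc, which silences transcription in pole cells, had 74.0, 75.2 and 73.9 TPM at 2-3h, against 712, 757 and 654 TPM at 1-2h, without overlap. vas, the germline helicase gene, averaged 7.39 TPM at 2-3h and 66.1 TPM at 1-2h, and orb, the other fly CPEB gene, 10.1 TPM at 2-3h and 158 TPM at 1-2h. Of the 3 without a call, tej averaged 156 TPM at 2-3h and 160.1 TPM at 1-2h and spoon 189 TPM at 2-3h and 212 TPM at 1-2h, and tud had 11.9, 31.4 and 39.7 TPM at 2-3h, against 22.6, 49.4 and 53.1 TPM at 1-2h, with replicate 1 lowest at both times. All 8 tested pole cell markers, a list that shares 4 genes with the germ plasm list, also fell (median -2.70). With no filter on mean TPM 9 were tested, of which 8 fell and 1 rose. Their summed level was 225, 251 and 251 TPM at 2-3h, against 1667, 1868 and 1752 TPM at 1-2h.

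**Figure D2:**
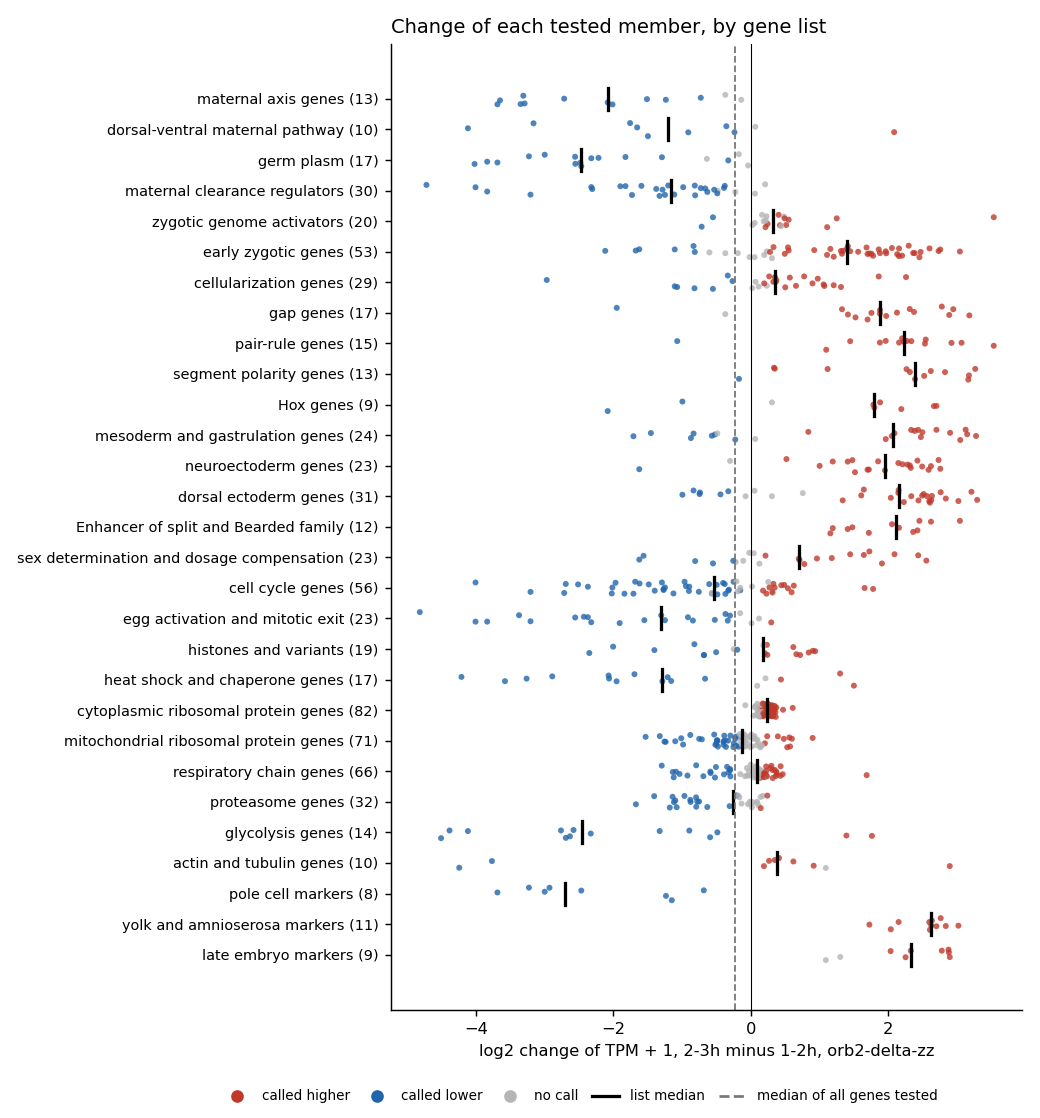
Change of each tested member of 29 gene lists on the log2(TPM + 1) scale, 2-3h minus 1-2h in orb2-delta-zz (number tested in brackets); points are genes coloured by call, thick bars list medians, and the dashed line the median of all genes tested, -0.23. Medians run from -2.70 for pole cell markers to 2.63 for yolk and amnioserosa markers, and the ribosomal protein genes lie close together around 0.24.

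Regulators that remove or silence maternal RNA fell as a group, with 26 of 30 lower, 0 higher and a median of -1.16. The share lower over all genes tested was 49.2%. smg, which recruits the CCR4-NOT deadenylase to maternal transcripts, had 169, 207 and 202 TPM at 2-3h, against 642, 683 and 726 TPM at 1-2h, after 683, 716 and 603 TPM at 0-1h. The libraries of 1-2h and 0-1h overlapped, and those of 2-3h lay far below both. The translational repressor gene brat averaged 132 TPM at 2-3h and 209 TPM at 1-2h. Its partner gene pum averaged 85.9 TPM at 2-3h and 143 TPM at 1-2h, and both fell. me31B, the helicase gene of silenced particles, averaged 931 TPM at 2-3h and 2328 TPM at 1-2h. Its partner gene tral averaged 623 TPM at 2-3h and 1432 TPM at 1-2h. The deadenylase gene twin (Ccr4) averaged 72.8 TPM at 2-3h and 221 TPM at 1-2h, and all 3 of these were called lower. Not1, the scaffold of the deadenylase, averaged 173 TPM at 2-3h and 193 TPM at 1-2h without a call. AGO1, the microRNA effector, averaged 154 TPM at 2-3h and 132 TPM at 1-2h, also without a call. After trimmed mean scaling 2 of the 30 rose, and without replicate 1 at both times 1 rose.

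Genes of egg activation and mitotic exit fell in 19 of 23 cases and rose in 1 (in 2 after trimmed mean scaling), with a median of -1.30. Among all genes tested 49.2% fell and 28.7% rose. Of the kinase complex that triggers translation at egg activation, 2 subunit genes lay far lower at 2-3h, of which gnu had 10.5, 9.59 and 13.5 TPM at 2-3h, against 198, 202 and 182 TPM at 1-2h. The kinase subunit gene png had 5.56, 4.46 and 5.38 TPM at 2-3h, against 59.5, 57.9 and 49.7 TPM at 1-2h. The gene of its remaining subunit, plu, averaged 62.0 TPM at 2-3h and 149 TPM at 1-2h. wisp, the cytoplasmic poly(A) polymerase gene, averaged 93.3 TPM at 2-3h and 274 TPM at 1-2h. The member that rose was Cdc16, a subunit of the anaphase-promoting complex, at 92.1 TPM at 2-3h and 74.4 TPM at 1-2h.

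Cell cycle genes moved both ways, with 36 of 56 lower, 13 higher and 7 not called (median -0.53). The shares over all genes tested were 49.2% lower and 28.7% higher. Of the Cdc25 phosphatase genes, which drive entry into mitosis, stg had 61.3, 74.0 and 79.8 TPM at 2-3h, against 221, 243 and 242 TPM at 1-2h. The other one, twe, had 63.5, 75.2 and 76.4 TPM at 2-3h, against 193, 207 and 206 TPM at 1-2h. Neither overlapped between the times, and 50.2% of all genes tested lay below without overlap. trbl, which promotes the loss of Cdc25, rose and averaged 202 TPM at 2-3h and 63.4 TPM at 1-2h. Z600 (frühstart), which blocks cyclin-dependent kinase, rose too and had 188, 221 and 211 TPM at 2-3h, against 59.0, 52.4 and 67.2 TPM at 1-2h. The gene of the checkpoint kinase Chk1, grp, averaged 89.3 TPM at 2-3h and 322 TPM at 1-2h and was called lower. That of Chk2, lok, averaged 111 TPM at 2-3h and 359 TPM at 1-2h and was called lower too. Cyclin genes moved in both directions. CycB fell, with means of 830.5 TPM at 2-3h and 2038 TPM at 1-2h, and CycB3 rose, with means of 702 TPM at 2-3h and 515 TPM at 1-2h. dap, the CDK inhibitor gene, fell to 19.1, 21.6 and 21.7 TPM at 2-3h, against 137, 148 and 135 TPM at 1-2h.

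Genes of glycolysis mostly fell, where 49.2% of all genes tested fell and 28.7% rose. Of 14 tested 12 fell and 2 rose, with a median of -2.46, and the summed level was 718, 708 and 748 TPM at 2-3h, against 3465, 3454 and 3345 TPM at 1-2h. Gapdh2 had 28.6, 27.6 and 33.8 TPM at 2-3h, against 655, 666 and 616 TPM at 1-2h (change -4.39 ± 0.08, limma adjusted p = 3.2e-08), and had been 2076, 2193 and 2215 TPM at 0-1h. PyK, the pyruvate kinase gene, had 26.7, 23.5 and 24.3 TPM at 2-3h, against 426, 458 and 459 TPM at 1-2h, and the triose phosphate isomerase gene Tpi averaged 3.17 TPM at 2-3h and 90.8 TPM at 1-2h. In Gapdh2 and PyK the times were far apart. The 2 that rose were Ldh, which makes lactate, at 12.1 TPM at 2-3h and 2.85 TPM at 1-2h, and Pfrx, which makes the activator of phosphofructokinase, at 35.3 TPM at 2-3h and 12.8 TPM at 1-2h.

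Heat shock and chaperone genes fell in 12 of 17 cases and rose in 3, or in 5 after trimmed mean scaling (median -1.29). Over all genes tested 49.2% fell and 28.7% rose. Hsp83, the fly Hsp90 gene and a known target of maternal clearance, had 187, 196 and 223 TPM at 2-3h, against 1402, 1596 and 1506 TPM at 1-2h, a change of -2.89 ± 0.08 (limma adjusted p = 6.6e-08). Hsp26, which is deposited by the mother, had 32.3, 28.1 and 34.0 TPM at 2-3h, against 614, 618 and 567 TPM at 1-2h. The constitutive Hsc70-4 averaged 2801 TPM at 2-3h and 2621 TPM at 1-2h and was not called. Copies of Hsp70 moved both ways at under 40 TPM, but their sequences are near identical and reads could be split among them.

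**Figure D3:**
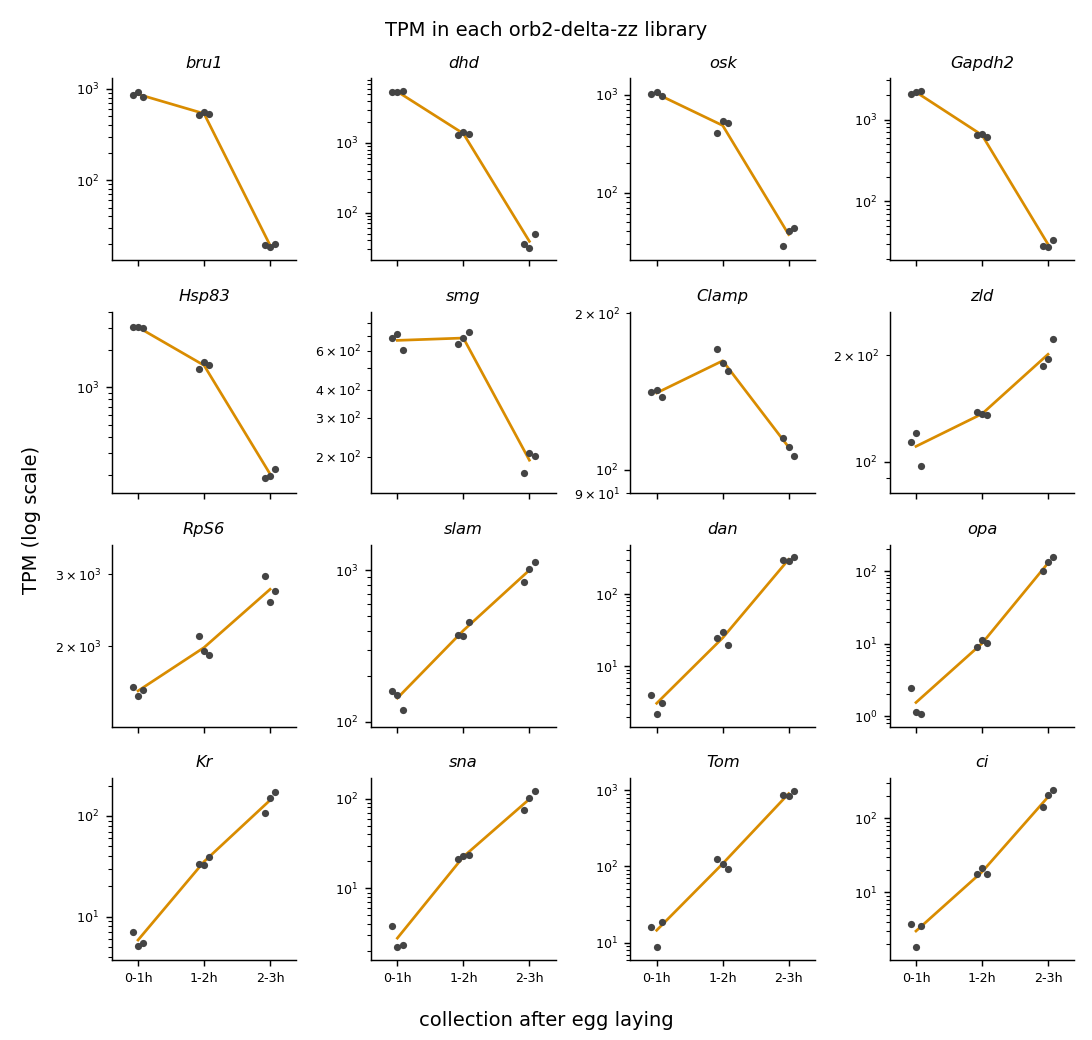
TPM (log scale) of 16 genes in each orb2-delta-zz library at 0-1h, 1-2h and 2-3h, with 3 points per time and lines through the means; y ranges differ between panels. Maternal genes such as bru1 and dhd decline through the series, smg declines only after 1-2h, and the bottom rows rise at each step.

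Ribosomal protein genes of the cytoplasm rose by little and in large number. Of 82 tested cytoplasmic ribosomal protein genes 59 rose, 0 fell and 23 were not called, with a median of 0.24. Among all genes tested 28.7% rose and 49.2% fell. Their summed level was 214663, 211518 and 214442 TPM at 2-3h, against 182347, 183298 and 180145 TPM at 1-2h. RpS6, a small subunit protein and kinase target, had 2975, 2566 and 2728 TPM at 2-3h, against 2117, 1942 and 1899 TPM at 1-2h (change 0.47 ± 0.07, limma adjusted p = 6.4e-04). After trimmed mean scaling 80 of the 82 were called higher. Among mitochondrial ribosomal protein genes 31 of 71 fell and 9 rose, a smaller share of falls than the 49.2% of all genes, with a median of -0.13 against -0.23 over all genes. After trimmed mean scaling 16 fell and 20 rose with a median of 0.08, so their direction as a group depends on the scaling.

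Respiratory chain genes were divided, with 22 of 66 higher and 18 lower (median 0.09), where 28.7% of all genes tested rose and 49.2% fell. After trimmed mean scaling 44 of the 66 were higher and 13 lower. Among those that fell was blw, the alpha subunit of ATP synthase, with 291, 308 and 330.2 TPM at 2-3h, against 668, 672 and 700.4 TPM at 1-2h. So did SdhA, of succinate dehydrogenase, at 36.7 TPM at 2-3h and 91.5 TPM at 1-2h. ND-42 of complex I rose, at 345 TPM at 2-3h and 266 TPM at 1-2h. The proteasome list, with 17 of 32 lower and 2 higher (12 higher and 15 lower after trimmed mean scaling, and 4 higher without replicate 1 at both times), lay close to all genes tested, where 49.2% fell and the median was -0.23 (list median -0.26). Of 18 genes of the 19S regulatory particle 15 fell and 2 rose, with a median of -0.88, whereas of 14 genes of the 20S core 2 fell and 12 were not called, with a median of 0.01. Rpn8 of the regulatory particle had 21.5, 20.9 and 20.7 TPM at 2-3h, against 70.0, 70.0 and 67.5 TPM at 1-2h. Prosbeta5 of the core averaged 239 TPM at 2-3h and 236 TPM at 1-2h. This division of the list was made after its values were seen.

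Most regulators of genome activation moved by little, but 3 rose by 2-fold or more, namely opa, described above, E(z) and Su(z)12. Of 20 tested genes 10 rose and 2 fell (median 0.33), where 28.7% of all genes tested rose and 49.2% fell. With the replicate number as a block, or without replicate 1 at both times, 16 of the 20 rose. zld, which encodes the pioneer factor Zelda, had 187, 196 and 222 TPM at 2-3h, against 138, 136 and 136 TPM at 1-2h, a change of 0.55 ± 0.07 (limma adjusted p = 2.0e-04). The GAGA factor gene Trl averaged 189 TPM at 2-3h and 142 TPM at 1-2h, called higher. Clamp, a further GA-repeat factor, fell to 114.9, 110.3 and 106 TPM at 2-3h, against 171, 160.3 and 155 TPM at 1-2h. E(z), a Polycomb repressive complex gene, rose, with 44.6, 47.4 and 55.7 TPM at 2-3h, against 18.4, 22.8 and 19 TPM at 1-2h. Su(z)12, of the same complex, rose too and averaged 69.9 TPM at 2-3h and 31.6 TPM at 1-2h. Both had been higher still at 0-1h, at 85.0 and 87.9 TPM.

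Among 53 tested early zygotic genes 39 rose, 6 fell and 8 were not called, with a median of 1.41, where 28.7% of all genes rose. Their summed level was 9965, 10448 and 11149 TPM at 2-3h, against 4042, 3540 and 4052 TPM at 1-2h. Tom, a short intronless Bearded-family gene that dampens Notch signalling (3L:14969344-14970306), had 874, 847 and 989 TPM at 2-3h, against 125, 109 and 92.2 TPM at 1-2h, and rose by 3.05 ± 0.11 (limma adjusted p = 2.1e-07). BobA, of the same family, averaged 948 TPM at 2-3h and 172 TPM at 1-2h, though near-identical copies of it exist. The 6 that fell were sc, amos, scw, nullo, CG18269 and CG16813, the last with means under 2 TPM. The proneural gene sc had 5.03, 4.66 and 4.62 TPM at 2-3h, against 18.5, 15.5 and 16.4 TPM at 1-2h. amos, also proneural, had 11.8, 11.1 and 9.46 TPM at 2-3h, against 52.9, 46.0 and 51.7 TPM at 1-2h. The BMP ligand gene scw averaged 40.7 TPM at 2-3h and 73.2 TPM at 1-2h, below its earlier libraries in all 3 later ones. At 0-1h sc, amos, scw and nullo averaged 1.54, 3.52, 6.67 and 9.95 TPM, so all 4 were highest at 1-2h.

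Cellularization, the enclosure of nuclei by membranes, drew on genes that mostly rose, with 18 of 29 higher and 7 lower (median 0.35). Among all genes tested 28.7% rose and 49.2% fell. slam, which marks the growing furrow, had 842, 1022 and 1141 TPM at 2-3h, against 376, 368 and 458 TPM at 1-2h. Sry-alpha, which supports its actin network, had 477, 420.4 and 471 TPM at 2-3h, against 145, 101 and 131 TPM at 1-2h. In both genes the times did not overlap, and 29.8% of all genes tested lay above without overlap. nullo, which acts at the same furrow, had 50.9, 49.5 and 37.8 TPM at 2-3h, against 106, 89.2 and 104 TPM at 1-2h, and fell. Septin genes moved in opposite directions: Septin5 averaged 689 TPM at 2-3h and 142 TPM at 1-2h, called higher, and Septin4 2.61 TPM at 2-3h and 27.2 TPM at 1-2h, called lower. The E-cadherin gene shg averaged 216 TPM at 2-3h and 109 TPM at 1-2h, and the beta-catenin gene arm 611 TPM at 2-3h and 356 TPM at 1-2h, both called higher.

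Segmentation genes rose at each tier of their cascade, where 28.7% of all genes tested rose and 49.2% fell. Of 17 tested gap and head gap genes 15 rose and 1 fell (median 1.88). Of 15 genes of the pair-rule list, which also holds tsh and drm, 14 rose and 1 fell (median 2.23). Of 13 segment polarity genes 12 rose and 1 fell (median 2.4). Kr, a central gap gene, had 108, 149.5 and 173 TPM at 2-3h, against 33.7, 32.5 and 39.5 TPM at 1-2h. knrl, a relative of the gap gene knirps, had 18.1, 25.0 and 28.6 TPM at 2-3h, against 1.49, 1.79 and 1.8 TPM at 1-2h. The gap list's fall was cnc, at 21.0 TPM at 2-3h and 84.0 TPM at 1-2h, and with the replicate block, or without replicate 1 at both times, 2 fell. eve, the primary pair-rule gene, had 44.7, 61.3 and 66.9 TPM at 2-3h, against 13.0, 12.2 and 16.6 TPM at 1-2h. prd, a pair-rule gene of the Pax family, had 64.5, 86.8 and 109 TPM at 2-3h, against 8.23, 9.49 and 9.96 TPM at 1-2h. In both the later libraries lay above all earlier ones, as in 29.8% of all genes tested. The pair-rule list's fall was ftz-f1, a maternal nuclear receptor gene, at 53.0 TPM at 2-3h and 112 TPM at 1-2h.

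Among segment polarity genes ci and ptc, of the Hedgehog pathway, had the largest changes. ci, its transcription factor, had 141, 206 and 239 TPM at 2-3h, against 17.9, 21.1 and 17.8 TPM at 1-2h (change 3.27 ± 0.18, limma adjusted p = 1.5e-06). ptc, its receptor, had 148, 150 and 168 TPM at 2-3h, against 16.9, 16.5 and 15.3 TPM at 1-2h (change 3.18 ± 0.08). The ligand gene hh was at 9.47 TPM at 2-3h and 1.10 TPM at 1-2h, called higher. wg, the Wnt ligand gene, averaged 51.5 TPM at 2-3h and 6.38 TPM at 1-2h, and its receptor gene fz2 62.1 TPM at 2-3h and 11.1 TPM at 1-2h, both called higher. The other receptor gene, fz, averaged 92.1 TPM at 2-3h and 104 TPM at 1-2h. Its fall of 0.17 lost its call after trimmed mean scaling and without replicate 1 at both times, leaving 0 lower in the list.

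Hox genes were at low levels but rose in 6 of 9 tested members, all 6 being homeotic selectors. Over all genes tested 28.7% rose. Antp averaged 21.8 TPM at 2-3h and 2.56 TPM at 1-2h, Dfd 9.87 TPM at 2-3h and 0.657 TPM at 1-2h, abd-A 9.32 TPM at 2-3h and 1.22 TPM at 1-2h and Ubx 4.95 TPM at 2-3h and 0.617 TPM at 1-2h. lab and pb were under the filter of 1 TPM. Within the same clusters zen2 fell, at 6.38 TPM at 2-3h and 13.7 TPM at 1-2h, and zen, the amnioserosa regulator, averaged 48.4 TPM at 2-3h and 39.0 TPM at 1-2h without a call. The last of the 9, cad, fell as described.

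Germ layer genes mostly rose, where 28.7% of all genes tested rose and 49.2% fell. In the mesoderm and gastrulation list 15 of 24 rose and 7 fell (median 2.08). The mesoderm regulator sna had 75.0, 101 and 120.5 TPM at 2-3h, against 21.2, 22.7 and 23.8 TPM at 1-2h. twi, which acts with it, had 61.2, 68.2 and 81.1 TPM at 2-3h, against 11.9, 11.4 and 14.3 TPM at 1-2h. In both genes the times did not overlap, and 29.8% of all genes tested lay above without overlap. htl, the FGF receptor of the mesoderm, had 39.6, 41.1 and 45.6 TPM at 2-3h, against 3.15, 3.90 and 3.24 TPM at 1-2h, a change of 3.28 ± 0.10 (limma adjusted p = 8.8e-08), and its adaptor gene stumps averaged 44.5 TPM at 2-3h and 3.98 TPM at 1-2h. All 7 members that fell were already listed at 0-1h, as were 7529 of the 8109 genes listed at both later times. Among the 7 were fog, cta and T48, which act in apical constriction. fog averaged 10.7 TPM at 2-3h and 15.7 TPM at 1-2h, cta 64.6 TPM at 2-3h and 116 TPM at 1-2h and T48 22.1 TPM at 2-3h and 26.0 TPM at 1-2h. Mef2, the muscle differentiation factor, averaged 9.75 TPM at 2-3h and 18.6 TPM at 1-2h, also called lower.

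In the neuroectoderm 21 of 23 tested genes rose and 1 fell (median 1.96), where 28.7% of all genes tested rose. sog, the BMP antagonist, had 137, 135 and 149.8 TPM at 2-3h, against 21.4, 19.2 and 20.1 TPM at 1-2h. SoxN, a neural Sox factor, had 29.6, 39.9 and 47.1 TPM at 2-3h, against 4.27, 5.10 and 4.98 TPM at 1-2h. Of the FGF ligand genes, which were low, ths averaged 14.3 TPM at 2-3h and 1.49 TPM at 1-2h and pyr 4.35 TPM at 2-3h and 0.380 TPM at 1-2h, both called higher. sc was the gene that fell. All 12 tested genes of the Enhancer of split and Bearded complexes, which answer to Notch, rose (median 2.11), with E(spl)m5-HLH at 50.9, 53.5 and 59.8 TPM at 2-3h, against 9.92, 7.54 and 6.83 TPM at 1-2h.

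In the dorsal ectoderm list 21 of 31 rose and 6 fell (median 2.16), where 28.7% of all genes tested rose and 49.2% fell. The BMP ligand gene dpp averaged 16.1 TPM at 2-3h and 4.59 TPM at 1-2h and its processing protease gene tld 89.3 TPM at 2-3h and 34.6 TPM at 1-2h, both called higher. The receptor and signal genes put, sax and Mad were called lower. put averaged 77.2 TPM at 2-3h and 130 TPM at 1-2h, sax 47.4 TPM at 2-3h and 79.7 TPM at 1-2h and Mad 124 TPM at 2-3h and 169 TPM at 1-2h. The T-box genes Doc1, Doc2 and Doc3 rose by 2.60, 3.03 and 2.77 (log2). All 11 tested yolk and amnioserosa markers rose (median 2.63), and their summed level was 404, 479 and 529 TPM at 2-3h, against 77.6, 80.6 and 75.4 TPM at 1-2h. The GATA factor gene srp had 28.2, 34.4 and 41.4 TPM at 2-3h, against 4.07, 5.11 and 4.07 TPM at 1-2h.

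Of 23 tested genes of sex determination and dosage compensation 13 rose and 5 fell (median 0.70). The shares over all genes tested were 28.7% and 49.2%. Sxl, the female switch gene, had 530.2, 518 and 623 TPM at 2-3h, against 159, 144 and 138 TPM at 1-2h. roX1, the male-specific RNA that coats the X chromosome, had 808, 832 and 946 TPM at 2-3h, against 155, 142 and 138 TPM at 1-2h (change 2.56 ± 0.08, limma adjusted p = 9.0e-08), while its partner gene msl-2 had 106, 104 and 114 TPM at 2-3h, against 19.7, 17.4 and 20.2 TPM at 1-2h. None of these 3 overlapped between the times, and 29.8% of all genes tested lay above without overlap. The X-linked signal gene sisA averaged 84.8 TPM at 2-3h and 24.8 TPM at 1-2h, while sc, which acts with it, fell. The subunit genes msl-1 and msl-3 fell. msl-1 averaged 88.3 TPM at 2-3h and 152 TPM at 1-2h and msl-3 56.0 TPM at 2-3h and 82.3 TPM at 1-2h.

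Of 19 tested genes of the histone list 9 rose and 8 fell (median 0.18), where 28.7% of all genes tested rose and 49.2% fell. The list leaves out abundant core histone genes. Of these His2A:CG33808 averaged 29320 TPM at 2-3h and 26942 TPM at 1-2h, and it, His2B:CG17949 and His3:CG33803 were not called. His4:CG33883 averaged 9976 TPM at 2-3h and 13048 TPM at 1-2h and was called lower. BigH1, the embryonic linker histone gene, had 79.5, 70.7 and 67.8 TPM at 2-3h, against 299, 302 and 281 TPM at 1-2h (change -2.0 ± 0.07). The H3.3 gene His3.3A averaged 339 TPM at 2-3h and 188 TPM at 1-2h, and the other H3.3 gene, His3.3B, 1212 TPM at 2-3h and 788 TPM at 1-2h, both called higher. Hira, their chaperone gene, fell to 7.20, 7.81 and 7.36 TPM at 2-3h, against 43.8, 42.3 and 40.2 TPM at 1-2h. In the actin and tubulin list 7 of 10 rose and 2 fell (median 0.38). The 2 that fell were alphaTub67C and gammaTub37C. alphaTub67C, the maternal alpha-tubulin gene, had 11.8, 10.9 and 14.4 TPM at 2-3h, against 252, 269 and 233 TPM at 1-2h, and gammaTub37C, the maternal gamma-tubulin gene, averaged 3.89 TPM at 2-3h and 65.8 TPM at 1-2h. The general gene alphaTub84B averaged 3543 TPM at 2-3h and 2300 TPM at 1-2h, and betaTub56D 2781 TPM at 2-3h and 2086 TPM at 1-2h, both called higher, although alphaTub84B is near identical to alphaTub84D.

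Markers of older embryos were low, and most of those tested rose, where 28.7% of all genes tested did. Of 28 such markers of muscle, nerve, glia, cuticle, haemocytes and basement membrane, 9 were tested, 7 rose and 0 fell, 12 were listed only at 2-3h at 0.041 to 1.5 TPM, and 6 were listed at neither time. Their summed level was 184, 267 and 245 TPM at 2-3h, against 30.7, 33.6 and 23.5 TPM at 1-2h, and 6.88, 5.10 and 9.73 TPM at 0-1h. elav, the neuronal RNA-binding protein gene, averaged 38.6 TPM at 2-3h and 4.38 TPM at 1-2h and Act87E 36.4 TPM at 2-3h and 4.08 TPM at 1-2h, both called higher. The muscle myosin gene Mhc had 0.0653, 4.38 and 0.0645 TPM at 2-3h. Mlc1, a myosin light chain gene, had 0, 4.35 and 0 TPM and Tm2, a tropomyosin gene, 0, 2.01 and 0 TPM. Col4a1, a basement membrane collagen gene, had 0.0322, 1.97 and 0.0543 TPM, so replicate 2 was far above the others in each of these 4. repo, the glial marker, averaged 0.117 TPM. Without replicate 2 at 2-3h 7 of the markers were tested and all 7 rose. The part of older embryos in the changes of other genes was not tested. Of 21 eggshell and yolk protein genes 0 were listed at 1-2h, and Yp3 and Cp18 alone at 2-3h, at 0.535 and 1.25 TPM.

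Genes that rose and fell differed in structure, which the choice of libraries did not use. Of the 832 annotated protein-coding genes that rose by 2-fold or more 14.4% had no intron, against 6.76% of the 1731 that fell by 2-fold or more and 9.42% of all 7226 tested. Non-coding genes made up 92 of the 924 annotated risers and 17 of the 1748 annotated fallers. Of all 7482 annotated genes tested 7226 were protein-coding. The X chromosome carried 13.2% of the risers and 21.6% of the fallers, against 17.4% of all genes tested. The median genomic span of the protein-coding risers was 4030 bases, of the fallers 3295 bases and of all tested 2783 bases. Without the 2-fold requirement the order was reversed, with 2699 bases for genes called higher and 2972 bases for genes called lower. These shares are descriptions across genes, which are not independent replicates. Small nucleolar RNAs were among the non-coding genes: of 32 tested, 18 rose and 0 fell, where 28.7% of all genes rose and 49.2% fell.

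The 1032 genes listed only at 2-3h were mostly at trace levels. Their median was 0.435 TPM, with 260 at 1 TPM or more, 32 at 5 or more and 14 at 10 or more, and their summed level was 1042, 1253 and 1308 TPM. Of 1029 with annotation 835 were protein-coding, but none of the 14 highest was. The highest was the small nucleolar RNA snoRNA:Psi28S-1180, which lies within the gene tou, at 53.3, 41 and 50.4 TPM. Next were snoRNA:Psi28S-1175a within RpS16 at 18.3, 19.6 and 51.6 TPM and snoRNA:SC35-b within SC35 at 31.2, 18.4 and 30.6 TPM. snoRNA:Psi28S-1175a was much higher in replicate 3 than in the others. The 10 highest lie within longer genes, and reads shared with those cannot be told apart.

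Among protein-coding genes of this class 6 reached 5 TPM, the highest being CG43800 at 5.52, 10.7 and 11.8 TPM, Argp at 7.51, 7.69 and 11.7 TPM and nol at 6.22, 8.48 and 7.25 TPM. The genes listed at a given time are the same for both genotypes. In wild type at 2-3h CG43800, Argp and nol averaged 6.90, 6.82 and 4.08 TPM in that order. Of the members of the gene lists 28 fell in this class and none reached 5 TPM. No change can be computed for them, since 1-2h holds no value.

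Set against wild type over the same hour, the mutant's changes followed those of wild type across genes. Across 7439 genes tested in both, the change in orb2-delta-zz and in wild type had a Pearson r of 0.963 and a Spearman rho of 0.953, as a description over genes from the same pair of tables. In wild type 20.5% of genes tested rose and 32.3% fell. Of the 7439 genes 5805 were called in orb2-delta-zz and 3911 in wild type, 3786 of them in both and 3780 in the same direction, which is 65.2% of the mutant's calls and 96.8% of those in wild type. The median standard error was 0.09 in orb2-delta-zz and 0.21 in wild type. Counts of calls alone therefore do not show a difference between the genotypes. List medians lay side by side, with 1.41 in orb2-delta-zz and 1.9 in wild type for early zygotic genes, 2.4 and 1.78 for segment polarity genes, -2.08 and -1.84 for maternal axis genes, and -2.46 and -2.36 for glycolysis. Of 52 early zygotic genes 9 changed more positively in orb2-delta-zz (median difference -0.57), and of 13 segment polarity genes 12 did (median difference 0.49), beside a median difference of -0.034 over all genes; these medians were not tested. In these 4 lists 0 single differences were called.

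**Figure D4:**
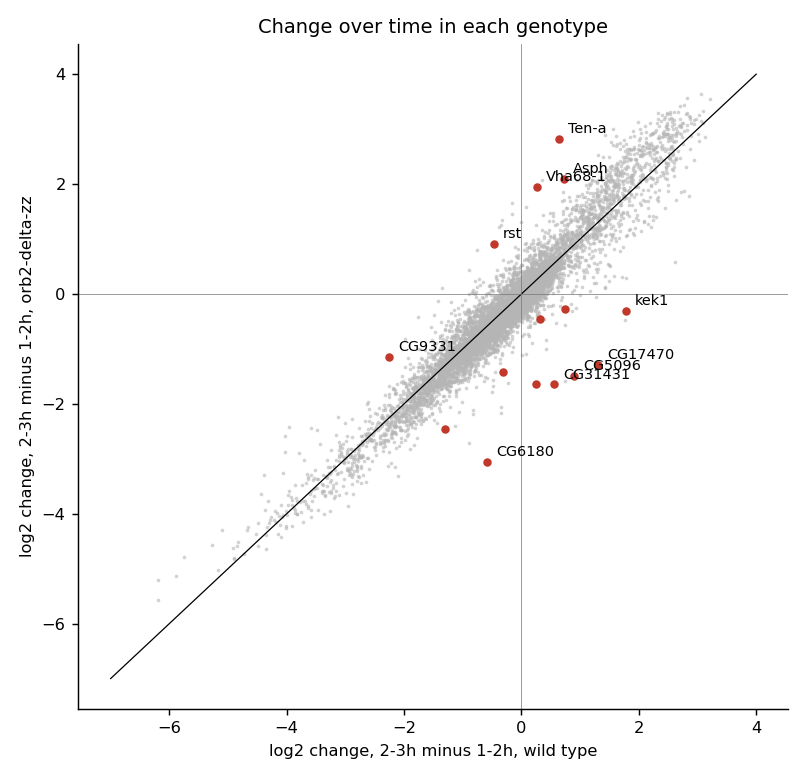
Log2 change from 1-2h to 2-3h of each gene tested in both genotypes, orb2-delta-zz on the vertical and wild type on the horizontal axis; the line marks equal change and red points genes whose change differed by the interaction test. Points follow the line, and CG6180, CG17470, kek1 and Ten-a lie far from it.

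The difference itself, tested as the interaction of genotype and time in limma over 12 libraries, was called in 18 of 7585 genes (0.237%), 7 more positive (0.0923%) and 11 more negative (0.145%) in orb2-delta-zz. An unadjusted p under 0.05 was reached by 435 genes. The count depended on the fit: 2 genes were called with the replicate number as a block within each genotype, both among the 18, and 1 gene, CG6180, without replicate 1 of orb2-delta-zz at both times. Leaving out wild type replicate 1 at 2-3h gave 73, and wild type replicate 3 at 2-3h gave 28. Leaving out wild type replicate 2 at 2-3h or replicate 3 at 1-2h gave 8, and leaving out any 1 library of orb2-delta-zz gave 6 to 10. On simulated data with the real spreads this test found 54% of differences of 1 and 93% of differences of 2 on the log2 scale, with 16.9% of its calls false. That simulation changed 200 genes with noise drawn separately for each library, so these shares may not carry over to the data.

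CG6180 (2L:12707661-12708680, plus strand, without introns) showed the difference under all alternatives run. It had 10.9, 10.2 and 10.2 TPM at 2-3h and 91.7, 96.1 and 94.4 TPM at 1-2h in orb2-delta-zz, against 249, 314 and 356 TPM at 2-3h and 507, 441 and 428 TPM at 1-2h in wild type. The mutant was thus far below wild type at both times, and the ratio between them was larger at 2-3h, with a difference of changes of -2.47 ± 0.17 (SE, limma adjusted p = 6.9e-05). CG17470 had 11.3, 12.3 and 13.3 TPM at 2-3h and 30.8, 31.0 and 32.5 TPM at 1-2h in orb2-delta-zz, against 6.6, 3.86 and 3.79 TPM at 2-3h and 1.70, 1.45 and 0.754 TPM at 1-2h in wild type. Here the mutant was above wild type at both times and the change had opposite signs, with a difference of -2.60 ± 0.29 (limma adjusted p = 0.00333). This gene kept its call with the replicate block but had an adjusted p of 0.095 by limma without replicate 1 at both times.

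Of the other named differences, each of which lost its call with the block, kek1, which encodes a transmembrane inhibitor of the EGF receptor, had 0.834, 0.769 and 0.952 TPM at 2-3h and 1.26, 1.18 and 1.423 TPM at 1-2h in orb2-delta-zz. In wild type it had 14.1, 9.92 and 6.90 TPM at 2-3h and 2.69, 1.56 and 2.45 TPM at 1-2h. Ten-a, a teneurin adhesion gene, had 28.9, 29.1 and 35.3 TPM at 2-3h and 3.81, 4.25 and 2.65 TPM at 1-2h in orb2-delta-zz, against 17.4, 14.3 and 11 TPM at 2-3h and 8.91, 7.59 and 9.45 TPM at 1-2h in wild type. Asph, the aspartyl beta-hydroxylase gene and the 1 list member among the 18, averaged 40.2 TPM at 2-3h and 8.65 TPM at 1-2h in orb2-delta-zz, against 80.4 TPM at 2-3h and 48.2 TPM at 1-2h in wild type. For kek1 and Ten-a the genotypes were apart at 2-3h in opposite directions, and Asph was below wild type at both times.

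**Figure D5:**
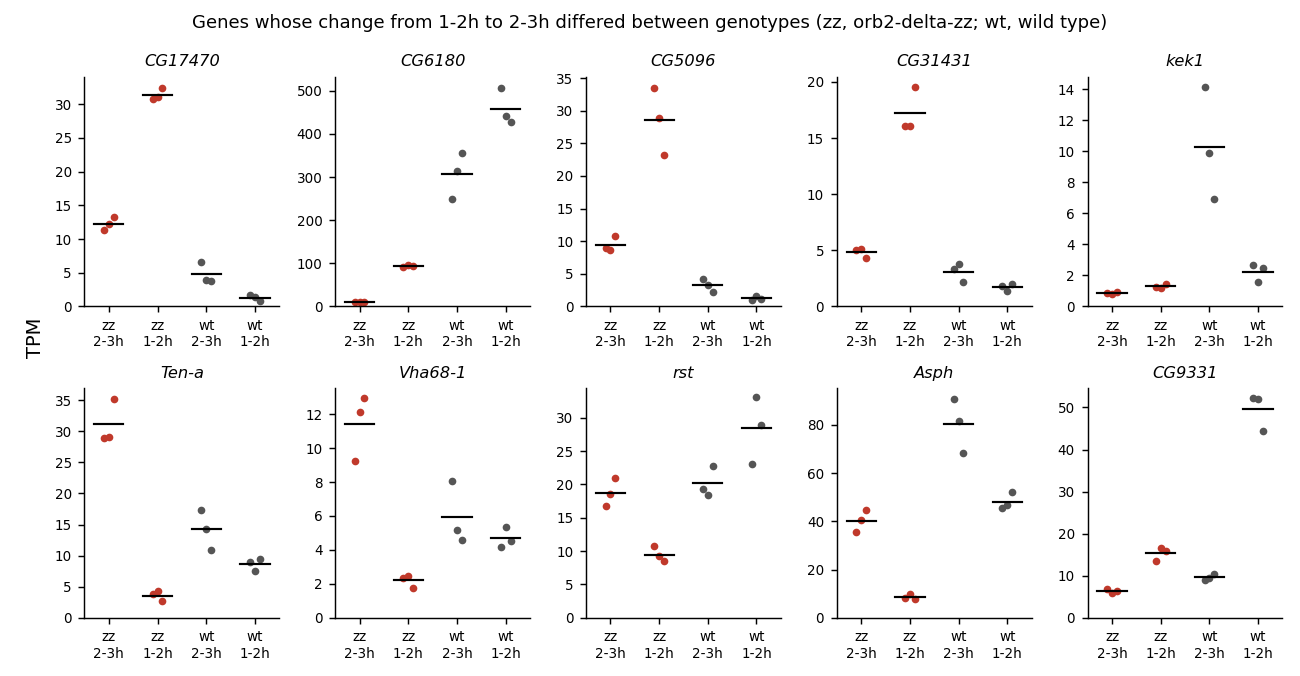
TPM in each library of the 10 genes named for a different change between genotypes, with orb2-delta-zz (zz, red) at 2-3h and 1-2h left of wild type (wt, grey) at 2-3h and 1-2h; bars are means of 3 libraries. In all 10 genes the libraries of the genotypes do not overlap at 1-2h.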

How the data were processed

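Libraries that keep the strand were prepared from total RNA of whole embryos after removal of ribosomal and other abundant RNA, per the labels' protocols. Trim Galore 0.6.5, Salmon 1.9.1 and DESeq2 1.42.1 were used, per the submitters' processing notes. Neither the genome build nor the use of strand in quantification is stated in these sources. The authors deposited TPM values per gene, 1 table per time point, with each library scaled to its own total. They also deposited normalized counts, a signal scaled by the authors within each table, which served only for the checks of transcript length and whole reads.

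Of 6 libraries and 8109 genes listed at both times, 7538 with a mean of at least 1 TPM were fitted as log2(TPM + 1) in limma 3.58.1 (R 4.3.3) with a trend, and called at a two-sided Benjamini-Hochberg adjusted p under 0.05. Differences from wild type were the interaction of genotype and time over 12 libraries. Changes on this scale understate those of low genes. The length factor behind TPM differed between the tables by a median of 0.0122 (log2, 8104 genes). Low values came out as whole reads in 35.1% to 61.7% of cases (tolerance 0.1), so reads were not recovered and no count test was run.

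On simulated data the comparison of times found 92% of changes of 1 and 98% of changes of 2 (log2), with 5.47% of its calls false. The simulation changed 200 genes and drew noise for each library separately. In the data 5876 genes were called and libraries did not deviate separately, so these shares may not carry over. Same-numbered libraries deviated together (r = 0.541, 0.23 and 0.273 for replicates 1, 2 and 3, across genes), and a fit with the number as a block was run as if numbers paired libraries. Replicates 2 and 3 correlated about as much across numbers (0.223 and 0.233), so replicate 1 alone stood apart, and the labels do not state a pairing.

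The comparison and the gene lists were chosen with earlier results of these data known. List members whose symbols found no match in the annotation were left out, among them nos, Dcp1, Dcp2, Ald, Pgk1 and Dl. Named genes were the 10 largest rises and 10 largest falls with separate libraries and 10 TPM or more at 1 of the times, up to 4 called members of each list, orb2, the 5 most positive and 5 most negative differences from wild type with 10 TPM or more in 1 of the groups, and the highest genes listed only at 2-3h. Other list members were chosen for their role after their values were seen. Positions and gene structures are from BDGP6.54, which annotated 9155 of 9220 gene identifiers. Alternatives covered the pseudocount, filter, scaling, block, library weights, threshold and left-out libraries. Analyses used Python 3.11.15 with pandas 2.3.3 and matplotlib 3.10.9.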

Additional observations from a re-analysis of the deposited data

Results flagged for a closer look

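The change from 1-2h to 2-3h differed between orb2-delta-zz and wild type in 18 genes by the interaction test of limma. Of the 10 named, 5 changed more negatively in orb2-delta-zz. The difference, orb2-delta-zz minus wild type on the log2 scale, was -2.60 for CG17470, -2.47 for CG6180, -2.39 for CG5096, -2.21 for CG31431 and -2.08 for kek1. The other 5 changed more positively, by 2.19 for Ten-a, 1.69 for Vha68-1, 1.38 for rst, 1.38 for Asph and 1.11 for CG9331. CG5096 overlaps gny on the same strand, and Ten-a spans several smaller genes, so reads there could belong to either gene. The cause of these differences was not tested.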

How the results depend on the processing

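Changes of the 117 genes named for their change over time kept their direction and their call in all 1753 alternative values computed. These 117 were mostly picked as the largest called changes, so their stability follows in part from that choice. Other genes described above were not part of this check, and fz lost its call after trimmed mean scaling. The replicate block changed no call among these 117 and gave 2355 rises and 3930 falls. A 2-fold requirement left 933 rises and 1760 falls. Trimmed mean scaling gave 1103 rises and 1398 falls of 2-fold or more. Leaving out single libraries gave 1991 to 2320 rises and 3466 to 3819 falls, and leaving out replicate 1 at both times gave 2362 rises and 3719 falls. That setting and the 2-fold counts under rescaling were added once results had been seen. Under a filter of 5 TPM, which tests fewer genes, 7 of the Enhancer of split and Bearded genes and 3 of the Hox genes were called as rising. In the fit of all 18 libraries, limited to genes listed at all 3 times, 3 early zygotic genes fell in place of 6.

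The count of 18 differences from wild type was less stable. It was 2 with the replicate block, 11 with group weights, 54 with all 18 libraries in 1 fit and 6 at an adjusted p under 0.01. Leaving out 1 library gave 6 to 73 differences. It was 73 without wild type replicate 1 at 2-3h, 28 without replicate 3 and 8 without replicate 2. It was 8 without wild type replicate 3 at 1-2h. For orb2-delta-zz it was 10, 6 and 6 without replicates 1, 2 and 3 at 2-3h, and 6, 8 and 7 without those at 1-2h. Without orb2-delta-zz replicate 1 at both times it was 1. Of 209 alternative values for the 10 named differences 143 kept their call, 66 lost it and 0 reversed. The cause was not tested. Read depth is unknown, so no counting error can be given for low genes.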

Other observations

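The gene spen, a transcriptional regulator with a very long transcript, shows how replicate 1 differs. It had 40.1, 122 and 173 TPM at 2-3h, against 36.5, 93.3 and 111 TPM at 1-2h in orb2-delta-zz, with replicate 1 lowest at both times. Of 5422 genes with 10 TPM or more at both times, replicate 1 was at least 1.5-fold lower than both other libraries in 233 at 2-3h and in 88 at 1-2h. In wild type the median of replicate 1 minus the mean of the others, for transcripts of 8000 bases or more, was -0.12 (log2) at 2-3h and -0.28 at 1-2h. The median change from 1-2h to 2-3h of these 159 genes in orb2-delta-zz was -0.15, and -0.08 without replicate 1.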
